A study of Mus musculus with 6 samples.

Results

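The 8 genes described here encode feedback inhibitors of MAP kinase signalling: the dual-specificity phosphatases Dusp1, Dusp2, Dusp4, Dusp5, Dusp6 and Dusp10, and the Sprouty proteins Spry1 and Spry2. They were taken by name from the deposited table of raw counts, which holds 55291 gene symbols, and all 8 were found and passed the filter on low counts. ILC1s, the type 1 innate lymphoid cells, and NK (natural killer) cells had been sorted from MC38 tumours, grown for 14 days under the skin of wild-type C57BL/6 mice given no other treatment that the labels name. MC38 is a mouse colon carcinoma line. There were 3 libraries per cell type, and the sources used here do not give the markers of the sort. Whether each library had a mouse of its own is not labelled, so the spread behind each p-value may be technical.

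MAP kinases (ERK, JNK and p38) are switched on when a threonine and a tyrosine in their activation loop are phosphorylated, and dual-specificity phosphatases of this family remove both phosphates. Sprouty proteins act further upstream and restrain the path from growth factor receptors through Ras to ERK. Most of these genes are themselves induced by MAP kinase activity, which makes a negative feedback loop, and in lymphocytes several are induced by activating receptors.

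ILC1 libraries held 16931099 to 20224847 counts and NK libraries 19551574 to 19814075. Genes above 0 counts numbered 21799, 21872 and 19402 in ILC1 replicates 1 to 3 and 15819, 15862 and 20772 in NK replicates 1 to 3. In CPM, the count of a gene scaled to the size of its library after TMM normalization, the 10 ILC1 markers summed to 936 to 1211 in ILC1 libraries and 300.1 to 442 in NK libraries, and the 10 NK markers to 606 to 735 and 2054 to 3253. The 735 CPM was the sum in ILC1 replicate 3, where Itgam made 311 CPM and Zeb2 210 CPM. In ILC1 replicates 1 and 2 Itgam was at 11.6 and 8.32 CPM and Zeb2 at 48.4 and 47.9 CPM. These were the 2 NK markers with positive fold changes, and the other 8 had negative ones. The libraries also differed in genes of other cell types. The 12 macrophage markers, all of them detected, summed to 14330 CPM in ILC1 replicate 3, while ILC1 replicates 1 and 2 had 892 and 760 CPM and the NK libraries 1002 to 1200 CPM. Ccr2 made most of the sum outside ILC1 replicate 3. Cd14 alone was at 2558 CPM in ILC1 replicate 3 and between 8.67 and 68.5 CPM in the others. The 10 fibroblast markers, all of them detected, summed to 1657, 2233 and 5944 CPM in ILC1 replicates 1 to 3 and to 8.88, 19.5 and 1359 CPM in NK replicates 1 to 3, and in ILC1 replicate 3 Fn1 made 5887 CPM of that. Col1a1 was at 116, 134 and 4.86 CPM in ILC1 replicates 1 to 3 and at 0.549, 0.821 and 82.3 CPM in NK replicates 1 to 3. ILC1 replicates 1 and 2 and NK replicate 3 are called the matrix-rich libraries below, a grouping made after collagen genes were seen. NK replicates 1 and 2, and ILC1 replicate 3, make the other library sets. The matrix-rich set alone holds both cell types, so a fit with library sets as a term compares the cell types within it. In log2 CPM over the genes tested, NK replicate 3 correlated with ILC1 replicates 1 and 2 at 0.977 and 0.971, and with each of NK replicates 1 and 2 at 0.880. T cell markers summed to 74.2 to 208 CPM in ILC1 libraries and 55.6 to 74.3 CPM in NK libraries, and neutrophil markers to 30.3 to 61.0 CPM and 33.9 to 461 CPM. Mmp9 alone made 451 CPM of the 461 CPM, which was the sum in NK replicate 1. The neutrophil genes S100a8 and S100a9 were at 0.399 and 1.45 CPM in that library.

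None of the 8 genes passed edgeR's quasi-likelihood test between ILC1s and NK cells at a Benjamini-Hochberg adjusted p of 0.05, over 14475 genes tested. That call was made for 0.076% of all genes in the higher direction and for 0.00691% in the lower direction. Dusp4 was the gene at the higher level in ILC1s at an unadjusted p under 0.05, where 6.95% of all genes were, and Dusp2 and Spry2 were at the lower level, where 8.82% of all genes were. The same 3 genes were those whose ILC1 and NK libraries did not overlap: 1 of 8 lay higher in ILC1s, where 12.5% of all genes did, and 2 of 8 lay lower, where 13.3% did. DESeq2 called 0 of the 8 genes, with 2.76% of all genes called higher and 2.87% lower in ILC1s. Its smallest adjusted p among the 8 were just above the threshold, at 0.0571 for Dusp4 and 0.0587 for Spry2. With limma-voom 0 of the 8 were called, and only 16 higher and 2 lower of all 14475 genes. The median log2 fold change was -0.16 over the 8 genes, 4 of them positive, and 0.081 over all genes tested. Fold changes here are ILC1 minus NK on the log2 scale, with the standard error (SE) of the fit. The smallest two-sided p that an exact permutation test allows with 3 libraries a group is 0.1, so the fit across all genes was used for each gene.

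**Figure D1:**
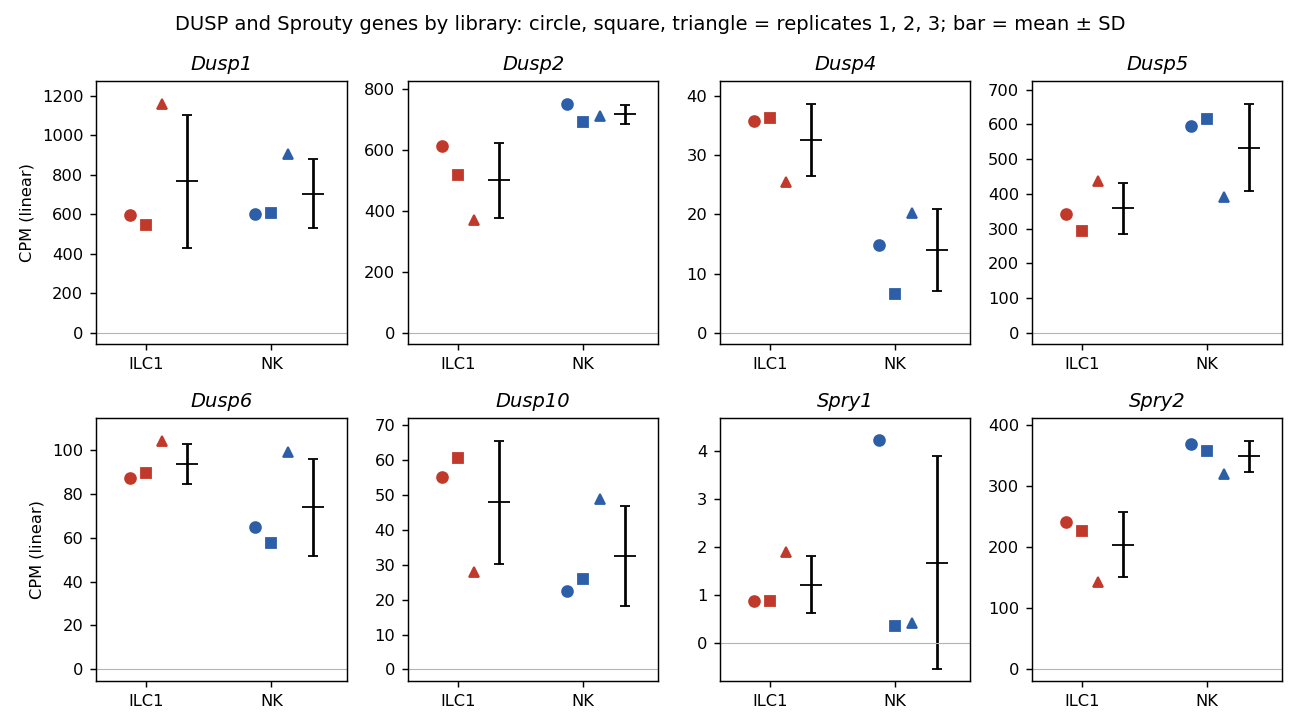
Level of each gene in CPM on a linear axis, with ILC1 libraries in red left of NK libraries in blue; the black bar is the mean ± SD of 3 libraries. Dusp4 lies higher in each ILC1 library than in any NK library, Dusp2 and Spry2 lie lower, and the other 5 genes overlap.

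Dusp2, Spry2 and Dusp5 were the genes at lower mean levels in ILC1s whose direction held in each alternative fit. The 8 markers that group 1 innate lymphoid cells share had negative fold changes too, with a median of -0.71, and summed to 7581 to 8889 CPM in ILC1 libraries and 9073 to 13804 CPM in NK libraries. Their part in the levels of these 3 genes was not tested. Spry2, which restrains ERK activation downstream of receptor tyrosine kinases, was at 242, 227 and 143 CPM in ILC1 replicates 1 to 3 and at 369, 358 and 321 CPM in NK replicates 1 to 3. Its highest ILC1 library stood below its lowest NK library. The ILC1 mean was 204 ± 53.5 CPM and the NK mean 349 ± 25.2 CPM (SD, n = 3 each), 1.71-fold lower in ILC1s, with a log2 fold change of -0.77 ± 0.22 (edgeR adjusted p = 0.220, the smallest of the 8). It ran from -0.90 without ILC1 replicate 1 to -0.58 without ILC1 replicate 3, which had the macrophage markers and held the lowest Spry2 level of all 6 libraries.

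Dusp2 encodes a nuclear phosphatase that is found mainly in blood cells and is induced on activation of lymphocytes. It was at 613, 517 and 369 CPM in ILC1 replicates 1 to 3 and at 749, 689.6 and 709 CPM in NK replicates 1 to 3. The NK libraries lay close together, and the ILC1 libraries spread more widely below them. Dusp2 averaged 499.7 ± 123 CPM over ILC1 libraries and 716 ± 30.1 CPM over NK libraries (SD, n = 3 each), a log2 fold change of -0.52 ± 0.21 (edgeR adjusted p = 0.311). It ran from -0.68 without ILC1 replicate 1 to -0.35 without ILC1 replicate 3.

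Dusp5 encodes a nuclear phosphatase specific for ERK. It was at 343, 294 and 438 CPM in ILC1 replicates 1 to 3 and at 595, 615 and 389.96 CPM in NK replicates 1 to 3. The groups overlapped, because NK replicate 3 lay below ILC1 replicate 3, and NK replicates 1 and 2 stood above the other 4 libraries. Dusp5 had a log2 fold change of -0.57 ± 0.24 (edgeR adjusted p = 0.329). It ran from -0.75 to -0.44 with single libraries left out, and with only the matrix-rich libraries it was -0.33. An antisense gene covers 547 bases of its exons, and since the strand setting of the counting is not known here, reads of that gene and of Dusp5 cannot be told apart.

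Dusp4 lay higher in ILC1s without overlap. It encodes a nuclear phosphatase that acts on ERK and JNK. Its level was 35.7, 36.3 and 25.5 CPM in ILC1 replicates 1 to 3 and 14.9, 6.57 and 20.3 CPM in NK replicates 1 to 3. Each ILC1 library stood above each NK library, and NK replicate 2, with 128 counts, was the lowest. The ILC1 mean was 32.5 ± 6.07 CPM and the NK mean 13.9 ± 6.92 CPM (SD, n = 3 each), 2.34-fold higher in ILC1s, with a log2 fold change of 1.22 ± 0.42 (edgeR adjusted p = 0.277). Within the matrix-rich libraries the mean of ILC1 replicates 1 and 2 was 36.01 CPM, against 20.3 CPM in NK replicate 3, and in the remaining libraries ILC1 replicate 3 had 25.5 CPM, against a mean of 10.7 CPM in NK replicates 1 and 2. The fold change was 0.79 on the log2 scale in a fit of the matrix-rich libraries alone, where Dusp4 passed (edgeR adjusted p = 9.1e-04, the single NK library taken to be as variable as ILC1 libraries), as did 6.13% of all genes in the higher direction. With the library sets as a term, which again compares the cell types within the matrix-rich libraries, it was 0.83 and did not pass (edgeR adjusted p = 0.710). It ran from 0.89 to 1.61 as single libraries were left out, without passing.

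Dusp10, whose product acts on JNK and p38 rather than ERK, had a positive fold change that was smaller than the spread between libraries. It was at 55.1, 60.6 and 27.8 CPM in ILC1 replicates 1 to 3 and at 22.6, 26.0 and 48.8 CPM in NK replicates 1 to 3. The 3 matrix-rich libraries were the highest, whichever cell type they held. Its log2 fold change of 0.56 ± 0.41 (edgeR adjusted p = 0.551) ran from 0.33 without NK replicate 1 to 0.99 without NK replicate 3, and was 0.20 in the matrix-rich libraries alone. The part of the fibroblast or matrix genes in that order was not tested.

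Dusp1 and Dusp6 had no direction that held. Dusp1, an immediate-early gene whose nuclear product acts on p38 and JNK as well as ERK, was at 597, 546 and 1156 CPM in ILC1 replicates 1 to 3 and at 599.8, 606 and 905 CPM in NK replicates 1 to 3. Replicate 3 of both cell types stood above the rest, and 4 libraries lay between 546 and 606 CPM. The log2 fold change was 0.12 ± 0.35 (edgeR adjusted p = 0.872), and it turned to -0.32 without ILC1 replicate 3. In the matrix-rich libraries alone it was -0.70 and passed (edgeR adjusted p = 0.0135, again with a single NK library), as did 6% of all genes in the lower direction. With the library sets as a term, which again compares the cell types within the matrix-rich libraries, it was -0.66 and did not pass (edgeR adjusted p = 0.215). ILC1 replicate 3, which had the highest Dusp1 level, was also the library with the macrophage markers, and the part of those cells in its level was not tested. In bulk samples of this kind, fewer cells of a type and less RNA per cell cannot be told apart.

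Dusp6, which encodes a cytoplasmic phosphatase specific for ERK, was at 87.0, 89.3 and 104 CPM in ILC1 replicates 1 to 3 and at 64.8, 57.5 and 98.9 CPM in NK replicates 1 to 3. NK replicates 1 and 2 were the lowest, and NK replicate 3 lay among the ILC1 libraries. On the log2 scale the fold change was 0.34 ± 0.23 (edgeR adjusted p = 0.511), from 0.19 without NK replicate 2 to 0.62 without NK replicate 3, and -0.21 in the matrix-rich libraries alone.

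Spry1, the other Sprouty gene of the set, had few counts. It had 16, 18 and 33 counts in ILC1 replicates 1 to 3 and 85, 7 and 9 counts in NK replicates 1 to 3, or 0.889, 0.876 and 1.91 CPM against 4.24, 0.359 and 0.432 CPM. NK replicate 1 held more than the other 5 libraries, and NK replicates 2 and 3 held the fewest. The log2 fold change was -0.45 ± 1.08 (edgeR adjusted p = 0.849) and turned to 1.61 without NK replicate 1. A count of 0 would have allowed 0.144 to 0.174 CPM (3 counts, for counting error only). NK replicate 1 also held the most of the mast cell and basophil genes Mcpt8 and Cpa3. They were at 15.3 and 16.5 CPM there and at no more than 1.41 and 2.77 CPM in any other library. Kit, of the same marker list, stood less apart, at 119 CPM against 110 CPM in NK replicate 2. The part of such cells in Spry1 was not tested.

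**Figure D2:**
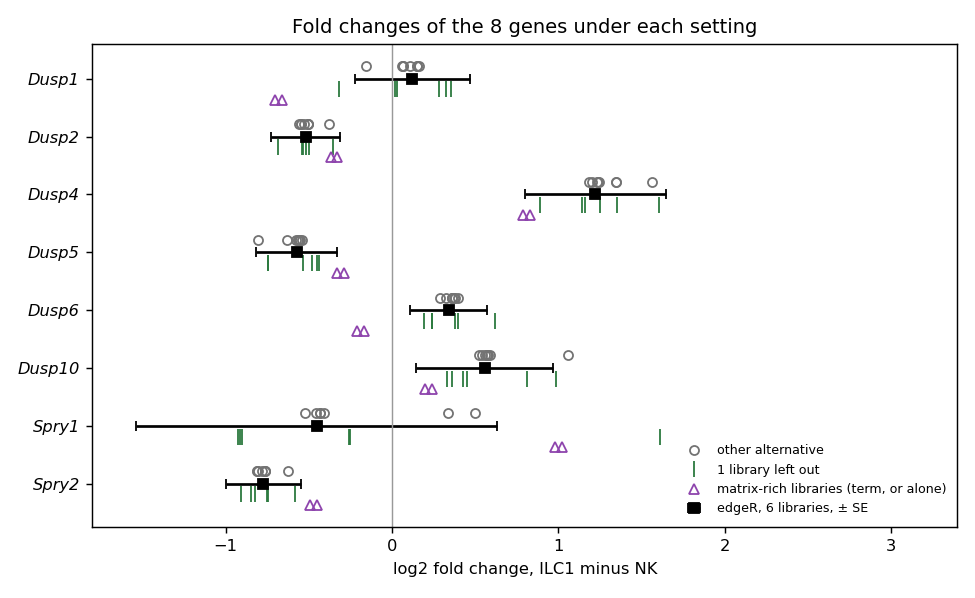
Log2 fold change (ILC1 minus NK) of the 8 genes with all 6 libraries (black square, ± SE), with 1 library left out (green bars), in fits on or within the matrix-rich libraries (purple triangles) and in the other alternatives (open circles). Dusp2, Dusp4, Dusp5, Dusp10 and Spry2 stay on their side of 0, and Dusp1, Dusp6 and Spry1 cross it.

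The signs held for 5 of the 8 genes in each of the 16 alternatives: Dusp4 and Dusp10 were positive and Dusp2, Dusp5 and Spry2 negative. The other 3 genes changed sign at least once. For Dusp2, Dusp4 and Spry2, whose groups did not overlap, leaving out or weighting libraries cannot by itself turn the sign. Their held sign thus adds little to the lack of overlap. Leaving out any single library, ILC1 replicate 3 among them, left 0 of the 8 genes past edgeR's test. Few or no genes of any kind passed in most of those fits. Without NK replicate 1 or 2, or ILC1 replicate 1 or 2, 0 of all genes were called in either direction. Without ILC1 replicate 3, 11 were called higher and 11 lower of 15089, and without NK replicate 3, 250 higher and 199 lower of 14973. With estimated library weights in limma-voom, Dusp4 and Dusp10 were called higher and Dusp5 and Spry2 lower in ILC1s, a setting that called 7.79% of all genes higher and 7.5% lower.

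**Figure D3:**
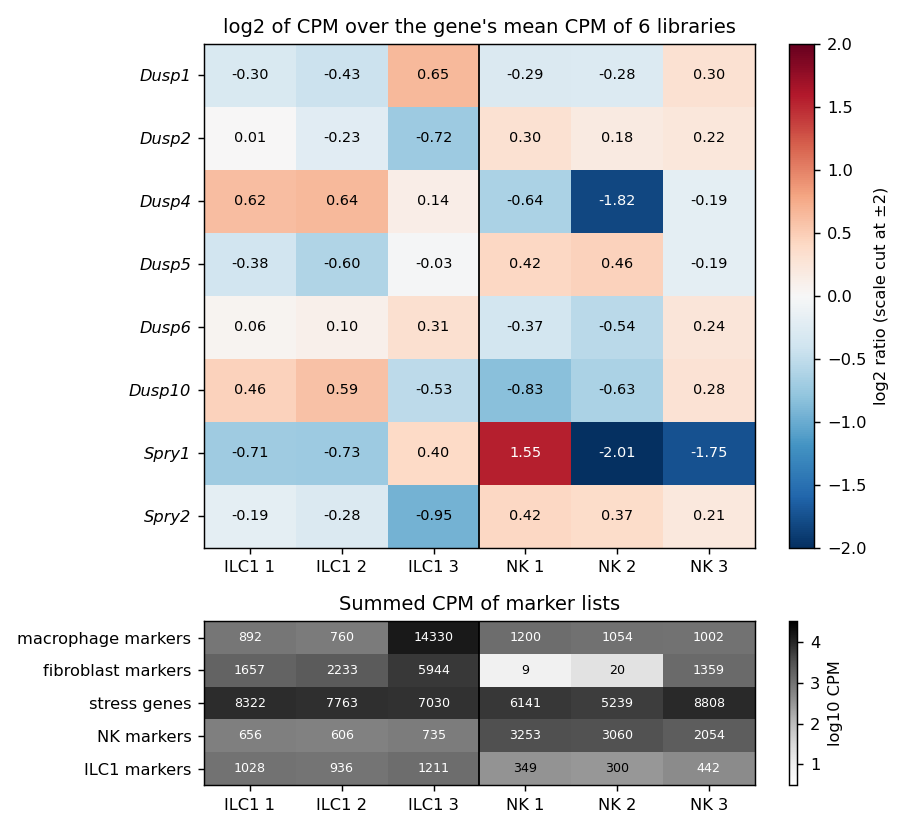
Upper panel, log2 of each gene's CPM over its mean of 6 libraries, red above and blue below the mean; lower panel, summed CPM of 5 marker lists on a log10 grey scale, with ILC1 libraries left of NK libraries. ILC1 replicate 3 combines the highest Dusp1 (0.65) and the lowest Dusp2 (-0.72) and Spry2 (-0.95) with 14330 CPM of macrophage markers.

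The upstream sequences of Dusp2, Dusp5 and Spry2, the genes whose negative sign held in each alternative, are shown with that of Dusp1, whose libraries overlapped, to set side by side what letters they hold. They run 5′ to 3′ over the 200 bases from 250 to 51 upstream of the RefSeq start on GRCm38.p6, and lie at chr2:127335909-127336108 (forward strand), chr19:53528895-53529094 (forward), chr14:105896870-105897069 (reverse) and chr17:26508523-26508722 (reverse). Capitals mark matches, on either strand, to the cyclic AMP response element TGACGTCA or its shorter form TGACG, which lies within it, to the EGR motif GCGGGGGCG, the E-box CACGTG and the CArG box that serum response factor binds.
Dusp2: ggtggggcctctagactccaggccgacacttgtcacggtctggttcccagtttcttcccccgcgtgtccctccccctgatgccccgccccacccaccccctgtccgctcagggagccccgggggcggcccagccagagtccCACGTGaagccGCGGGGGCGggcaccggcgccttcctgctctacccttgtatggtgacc
Dusp5: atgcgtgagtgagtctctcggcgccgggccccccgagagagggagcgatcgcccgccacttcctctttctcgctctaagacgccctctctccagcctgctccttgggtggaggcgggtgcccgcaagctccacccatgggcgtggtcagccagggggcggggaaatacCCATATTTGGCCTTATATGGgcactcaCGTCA
Spry2: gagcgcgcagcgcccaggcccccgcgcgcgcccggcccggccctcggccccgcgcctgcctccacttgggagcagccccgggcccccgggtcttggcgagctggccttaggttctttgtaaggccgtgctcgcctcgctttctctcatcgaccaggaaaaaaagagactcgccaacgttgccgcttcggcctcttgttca
Dusp1: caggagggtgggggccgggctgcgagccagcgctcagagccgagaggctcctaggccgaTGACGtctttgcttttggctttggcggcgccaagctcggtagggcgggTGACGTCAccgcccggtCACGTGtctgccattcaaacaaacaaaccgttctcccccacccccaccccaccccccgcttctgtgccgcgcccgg

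Dusp1 held 1 full cyclic AMP response element, 143 bases upstream of the start, where 0.828% of 32851 promoter windows of the same length held one, and a separate short form 191 bases upstream (12.7% of windows held the short form). It also held an E-box, as did Dusp2 (4.34% of windows), and Dusp2 held an EGR motif 98 bases upstream (1.61% of windows). Dusp5 held a pair of adjacent CArG boxes that begin 82 and 72 bases upstream, where 1.16% of windows held at least 1, and a short form of the cyclic AMP element. Spry2 held none of the motifs searched, and no motif was shared by Dusp2, Dusp5 and Spry2. The AP-1 motif TGANTCA (5.57% of windows) and the ETS motif CCGGAAG (3.98%) were in none of the 7 upstream windows matched by gene symbol, those of Dusp6, Dusp10 and Spry1 included. These are matches of letters, not shown to be bound.

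Levels can be compared between genes only per length. Per kilobase of the longest coding transcript, ILC1s held 385 ± 170 CPM per kb of Dusp1, 309 ± 76.0 of Dusp2, 145 ± 29.5 of Dusp5, 97.9 ± 25.6 of Spry2, 33.4 ± 3.26 of Dusp6, 17.1 ± 6.28 of Dusp10, 11.9 ± 2.21 of Dusp4 and 0.442 ± 0.214 of Spry1 (SD, n = 3). NK cells held 443 ± 18.6 CPM per kb of Dusp2, 353 ± 87.6 of Dusp1, 216 ± 50.3 of Dusp5, 167 ± 12.1 of Spry2, 26.4 ± 7.91 of Dusp6, 11.6 ± 5.11 of Dusp10, 5.08 ± 2.52 of Dusp4 and 0.605 ± 0.80 of Spry1. The order of the last 6 genes was the same in both cell types. Dusp1 and Dusp2 did not differ beyond the spread of Dusp1 in ILC1s, where the ratio of Dusp1 to Dusp2 per length was 0.791, 0.858 and 2.55 in replicates 1 to 3. In NK replicates 1 to 3 it was 0.651, 0.714 and 1.04. With the exon union of all transcripts as the length, which for Dusp1 includes retained introns, Dusp2 stood above Dusp1 in ILC1s too, at 249 and 231 CPM per kb. Dusp10 and Dusp4 in ILC1s, and Dusp5 and Spry2 in NK cells, also had means closer than the SD of the higher gene. The highest Dusp1 library of the NK cells, at 455 CPM per kb, stood above their lowest Dusp2 library, at 426. The other neighbours in either order were further apart than their SDs.

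**Figure D4:**
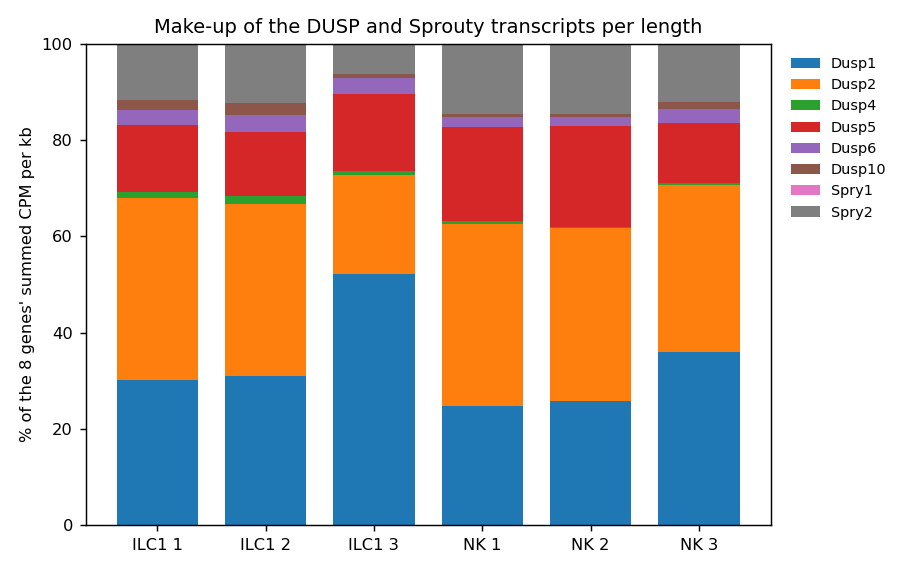
Share of each gene in the 8 genes' summed CPM per kb, stacked to 100%, for each ILC1 library and each NK library. Dusp1 makes 52.3% in ILC1 replicate 3, and Dusp4 makes 0.837 to 1.49% in ILC1 libraries and 0.203 to 0.585% in NK libraries.

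The sum of the 8 genes was 1974, 1772 and 2265 CPM in ILC1 replicates 1 to 3 and 2419, 2358 and 2493 CPM in NK replicates 1 to 3, with a mean of 2004 ± 248 CPM over ILC1 libraries, against 2423 ± 67.7 CPM over NK libraries (SD, n = 3 each). Dusp1, Dusp2, Dusp5 and Spry2 carried nearly all of it. Per length, Dusp2 made 37.98, 35.96 and 20.5% of the summed CPM per kb in ILC1 replicates 1 to 3 and 37.95, 36.05 and 34.7% in NK replicates 1 to 3, so that its share stood apart in ILC1 replicate 3 alone. Spry2 made 11.6, 12.24 and 6.17% in ILC1 libraries and 14.5, 14.5 and 12.15% in NK libraries, which overlapped. The ratio of Dusp4 to Dusp2 per length, picked after the values were seen, was 0.0344, 0.0414 and 0.0408 in ILC1 replicates 1 to 3 and 0.0118, 0.00562 and 0.0169 in NK replicates 1 to 3.

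Likeness to other genes was measured as the root mean square difference of log2 CPM over the 6 libraries, each gene centred on its own mean, among 10048 named genes with at least 5 CPM. Dusp2 lay nearest to Ets1, a transcription factor gene of lymphocytes (0.048), and to Polm, a DNA polymerase gene (0.054). Dusp5 lay nearest to Grk2, which encodes a G protein-coupled receptor kinase (0.035), and to the integrin gene Itgax (0.036). The genes nearest to Spry2 were Paip2b (0.066) and Slc2a4rg-ps (0.068), and those nearest to Dusp6 were Zfand5 (0.054) and Tdrd7 (0.065). Dusp10 lay nearest to the nucleoporin gene Nup37 (0.065) and the dynein gene Dync2h1 (0.066). Dusp1 and Dusp4 had less close neighbours, Tpcn2 (0.12) and Itga6 (0.12) for Dusp1 and Zfp61 (0.14) and Ptov1 (0.19) for Dusp4. Among the 8 genes themselves the closest pair was Dusp2 and Spry2 (0.15), and Dusp1 and Dusp6 followed (0.31). With 6 libraries these values describe the libraries, depth and other cells included, and carry no test.

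The rest of the phosphatase and Sprouty families had no gene past edgeR's test. Of 5 further genes of the MAP kinase phosphatase family, all were tested and 1 was at an unadjusted p under 0.05. Their median log2 fold change was 1.21, and DESeq2 called 1 higher. That gene, Dusp16, whose product acts on JNK and p38, was at 15.0, 12.7 and 64.9 CPM in ILC1 replicates 1 to 3 and at 4.69, 6.05 and 11.03 CPM in NK replicates 1 to 3. Its log2 fold change was 2.09 ± 0.76 (edgeR adjusted p = 0.288). Dusp9, a phosphatase for ERK, followed with 10.6, 13.9 and 2.26 CPM in ILC1s against 1.995, 1.54 and 8.01 CPM in NK cells. The median of 1.21 is the fold change of Dusp9 itself, with an SE of 0.90 (edgeR adjusted p = 0.555). The 5 genes include Styxl1, counted as a relative of the phosphatases. It had only 10, 13 and 0 counts in ILC1 replicates 1 to 3 and 33, 0 and 5 in NK replicates 1 to 3. Dusp8, singled out with its values in view, was at 20.4, 23.0 and 4.86 CPM and at 1.90, 1.03 and 15.4 CPM. Both Dusp9 and Dusp8 were highest in the matrix-rich libraries, whichever cell type they held. ILC1 replicate 3, with the macrophage markers, held the most Dusp16 of all libraries and the least Dusp9 of the ILC1 libraries.

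Of 14 atypical dual-specificity phosphatase genes, which lack the MAP kinase-binding domain, 9 were tested and 0 passed, with 1 at an unadjusted p under 0.05 in each direction, a median of 0.12 and 2 called higher by DESeq2. Dusp3 was at 19.2, 18.3 and 60.9 CPM in ILC1 replicates 1 to 3 and at 8.28, 6.93 and 13.6 CPM in NK replicates 1 to 3. Dusp11, an RNA phosphatase gene, was at 167, 149 and 157 CPM in ILC1s and at 191, 204 and 184 CPM in NK cells. Dusp16 and Dusp3 both had their highest level in ILC1 replicate 3, as Dusp1 did, and the part of macrophages in it was not tested.

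Of 5 other Sprouty and SPRED genes, whose products also restrain the Ras to ERK path, 4 were tested and Spry3 was not analysed here. By edgeR and by DESeq2 0 passed, 1 was at an unadjusted p under 0.05, and all 4 fold changes were positive, with a median of 0.41. Spred1 was at 60.7, 55.4 and 53.2 CPM in ILC1 replicates 1 to 3 and at 27.4, 35.97 and 45.3 CPM in NK replicates 1 to 3, without overlap. Its log2 fold change was 0.64 ± 0.20 (edgeR adjusted p = 0.256), opposite in sign to that of Spry2. Spred3 was at 5.34, 5.59 and 5.38 CPM in ILC1s and at 2.09, 0 and 4.32 CPM in NK cells.

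Upstream of the feedback genes, 16 of 17 genes for Ras and its activators were tested and 0 passed edgeR's test, with 5 at an unadjusted p under 0.05, all lower in ILC1s. Their median was 0.02, and DESeq2 called 2 lower. Rasgrp2, a guanine nucleotide exchange factor gene, was at 12.6, 9.39 and 9.32 CPM in ILC1 replicates 1 to 3 and at 57.4, 42.7 and 34.3 CPM in NK replicates 1 to 3. Its log2 fold change was -2.10 ± 0.25 (edgeR adjusted p = 0.0830). Gab3, an adaptor gene, was at 12.9, 11.5 and 7.46 CPM in ILC1s and at 28.5, 24.1 and 25.2 CPM in NK cells (edgeR adjusted p = 0.134). Among 9 tested of 10 genes for Ras GTPase-activating proteins, which switch Ras off, 0 passed, with 3 lower at an unadjusted p under 0.05, a median of -0.04 and 1 called lower by DESeq2. Rasa3 was at 178, 166 and 130.2 CPM in ILC1s and at 355, 373 and 289 CPM in NK cells (edgeR adjusted p = 0.106 at a log2 fold change of -1.10 ± 0.18), and Rasal3 at 333, 284 and 264 CPM and at 513, 534 and 384 CPM.

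Of 12 tested genes of the ERK cascade, of 13 listed, 0 passed by edgeR or DESeq2, with 1 lower at an unadjusted p under 0.05, and the median log2 fold change was -0.12. Araf was at 95.3, 90.6 and 88.8 CPM in ILC1s and at 126, 119 and 107 CPM in NK cells, and the scaffold gene Ksr1 at 42.9, 37.7 and 25.9 CPM and at 47.2, 50.02 and 51.8 CPM.

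Of 22 tested genes of the JNK and p38 cascades, of 24 listed, 0 passed edgeR's test, with 1 at an unadjusted p under 0.05 in each direction, a median of -0.0046 and 1 called higher by DESeq2, Gadd45g. Its product activates an upstream kinase of that cascade, and Gadd45g was at 65.5, 69.8 and 90.4 CPM in ILC1s and at 42.7, 42.3 and 44.2 CPM in NK cells (edgeR adjusted p = 0.129 at a log2 fold change of 0.80 ± 0.16). Map3k1 was at 51.5, 42.6 and 62.9 CPM in ILC1s and at 80.6, 69.5 and 65.1 CPM in NK cells. Of 10 tested kinases that MAP kinases activate 0 passed edgeR's test, with 1 higher and 2 lower at an unadjusted p under 0.05, a median of 0.01 and 1 called in each direction by DESeq2. Mapkapk3 was at 179.7, 168 and 289 CPM in ILC1s against 92.3, 114 and 91.9 CPM in NK cells, and Rps6ka5 at 12.9, 11.5 and 11.1 CPM against 22.5, 21.9 and 18.5 CPM. Of 4 tested other phosphatases of MAP kinases, of 5 listed, 0 passed by edgeR or DESeq2, with 1 lower at an unadjusted p under 0.05 and a median of -0.19. Values were, for Ppm1b, 81.8, 76.3 and 82.2 CPM in ILC1s against 109.7, 106 and 96.4 CPM in NK cells and, for Ptpn7, 173, 141 and 173 CPM against 254, 238 and 156 CPM.

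Of 21 transcripts that ERK activity is known to induce, all were tested, 18 had positive fold changes, as did 8110 of the 14475 genes tested, and the median was 0.64. By edgeR 0 passed over all genes, 2 were at an unadjusted p under 0.05, both higher, and DESeq2 called 1 higher. The libraries of 6 of the 21 lay higher in ILC1s without overlap, where 12.5% of all genes did, and those of 0 lay lower, where 13.3% did. The 6 genes were Spred1, Fosl2, Ier3, Egr2, Etv5 and Phlda1. Ier3, Egr2, Etv5 and Phlda1 were highest in ILC1 replicate 3, the library with the macrophage markers. Ier3 was at 117, 167 and 627 CPM in ILC1 replicates 1 to 3, and Egr2, the gene DESeq2 called, at 50.3, 55.3 and 144 CPM. Spred1, Spred2 and Spry4 also stand in the list of other Sprouty and SPRED genes. Spred1, given above, and Fosl2 had the smallest p, and Fosl2, an AP-1 subunit gene, was at 839, 696 and 921 CPM in ILC1s, against 566, 658 and 651 CPM in NK cells. Summed, the list came to 8794, 8105 and 9787 CPM in ILC1 replicates 1 to 3 and to 6611, 5677 and 8759 CPM in NK replicates 1 to 3, which put NK replicate 3 among the ILC1 libraries. Egr1 was singled out with its values in view, at 799.9, 836 and 323 CPM in ILC1 replicates 1 to 3 and at 218, 136 and 614 CPM in NK replicates 1 to 3, and was highest in the matrix-rich libraries. Ccnd1, likewise, was at 143.5, 174 and 55.3 CPM and at 2.84, 6.72 and 113 CPM. The 12 stress genes that tissue dissociation is known to induce summed to 8322, 7763 and 7030 CPM in ILC1s, against 6141, 5239 and 8808 CPM in NK cells, and Fos, Fosb, Jun, Junb, Egr1 and Ier2 stand in both lists. The part of dissociation or of other cells in these levels was not tested.

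**Figure D5:**
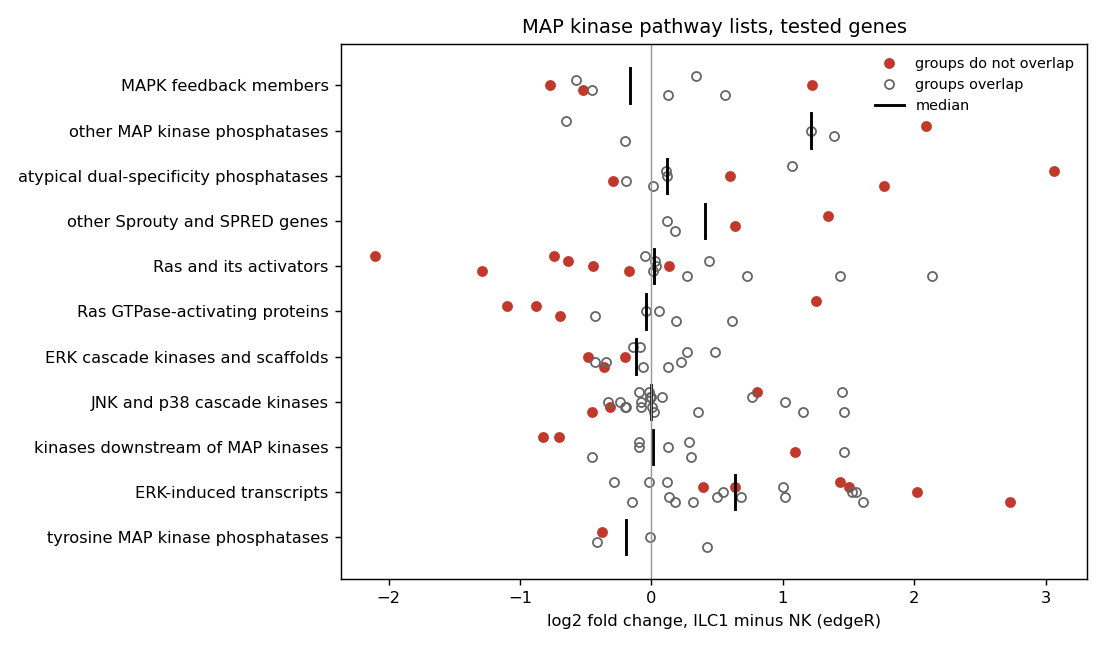
Log2 fold change (ILC1 minus NK) of each tested gene in the 8 feedback genes (top row) and 10 other MAP kinase lists, filled red where the groups do not overlap and open grey where they do, with a black bar at the median. The medians lie between -0.19 and 0.64 except that of the other MAP kinase phosphatases, at 1.21. That median is the value of Dusp9 among 5 genes, Styxl1 included.

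On GRCm38 the genes lie apart from each other, on 8 chromosomes: Dusp10 at chr1:184013302-184075636, Dusp2 at chr2:127336159-127338376, Spry1 at chr3:37639947-37644598, Dusp4 at chr8:34807297-34819894, Dusp6 at chr10:99263231-99267489, Spry2 at chr14:105891947-105896819, Dusp1 at chr17:26505590-26562128 and Dusp5 at chr19:53529109-53542431. All 8 are annotated as protein-coding, and a count refers to the exons of the whole gene. Besides the antisense gene at Dusp5, the gene model Gm42922 covers 710 bases of Spry1 on the opposite strand and had 0 counts in all 6 libraries, and Ergic1 shares 11 bases with Dusp1.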

How the data were processed

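The data are a table of raw counts per gene symbol, deposited by the authors, with a column for each of the 6 libraries. Per the submitters' processing notes, the tools and build were HISAT2 2.1.0, featureCounts 2.0.1 and GRCm38. The sources used here do not give the annotation, the strand setting or how multi-mapping reads were counted. Reads were single-end, of 50 bases, from poly(A)-selected RNA without molecular identifiers, per the labels' protocols, so counts include PCR copies and floors cover counting error only.

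Columns were matched to samples by title. CPM used TMM-scaled library sizes over all genes. ILC1s were compared with NK cells in edgeR 4.0.16 (R 4.3.3) with filterByExpr, robust quasi-likelihood fits, no term besides cell type, and Benjamini-Hochberg adjustment over all genes tested. The alternatives used DESeq2 1.42.0 on all genes, limma 3.58.1 and the settings given at the end. The edgeR procedure was tested on simulated data. With the spread between libraries as estimated here, it recovered 1 of 50 genes changed 2-fold and 20 of 50 changed 4-fold. A gene changed 2-fold would thus mostly not be called. Genes and lengths came from GENCODE M21, upstream sequences from RefSeq on GRCm38.p6, where 7 of the 8 genes matched. The length of the exon union was an alternative added after the lengths were seen.

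The members, the gene lists, the library sets and the tests were chosen with earlier results of these data known. Of each pathway list the genes past the test are named, or otherwise the 2 with the smallest p. Likeness used a prior count of 2, genes with a mean of at least 5 CPM and no unnamed gene models, and 2 genes are named for each member at that level. Other genes are said to be singled out with their values in view. No pair of libraries agreed within counting noise (median chi-square per gene of at least 2.42).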

Additional observations from a re-analysis of the deposited data

How the results depend on the processing

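Dusp2, Dusp4, Dusp5, Dusp10 and Spry2 kept the sign of their fold change in 16 of 16 alternatives. For Dusp2, Dusp4 and Spry2 this largely follows from groups that did not overlap. The fit with library sets as a term and that of the matrix-rich libraries alone draw the cell-type difference from the same libraries, so they are not separate checks. Dusp1 reversed in the matrix-rich libraries alone (-0.70), with library sets as a term (-0.66), with library weights (-0.15) and without ILC1 replicate 3 (-0.32). In the other leave-one-out fits Dusp1 stayed positive, from 0.02 to 0.35. Dusp6 reversed to -0.21 in the matrix-rich libraries alone and to -0.17 with library sets as a term. Spry1 reversed to 0.98 and 1.02 in the same 2, to 0.34 with limma-voom, to 0.50 with the replicate block and to 1.61 without NK replicate 1 (from -0.92 upward over the libraries left out). The cause was not tested.

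The number of genes called moved more than the fold changes. Against 11 higher and 1 lower with edgeR, DESeq2 called 396 higher and 412 lower, no low-count filter 47 and 91, library weights 1127 and 1085, the matrix-rich libraries alone 956 and 935, and the replicate block 0 and 0 (1584 at an unadjusted p under 0.05). Those called lower were 17 with library sets as a term and 2 with limma-voom and with a mean of at least 5 CPM. Leaving out single libraries gave 0 to 250 higher (250 without NK replicate 3) and 0 to 199 lower. Of the 8 genes 0 were called, except 1 higher and 1 lower in the matrix-rich libraries alone and 2 and 2 with library weights.

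Deviations of same-numbered ILC1 and NK libraries from their group means correlated at -0.36, -0.36 and -0.56 across genes. NK replicate 3 correlated with ILC1 replicates 1 and 2, the other matrix-rich libraries, at 0.49 and 0.57. ILC1 replicate 3 correlated with NK replicates 1 and 2 at 0.42 and 0.35. Because these values follow the library sets, they cannot show whether same-numbered libraries share a mouse or a sort. With the block 0 of the 8 genes were called, and Dusp4 had 1.35 and Spry2 -0.81. Likeness with a prior count of 0.5 gave 13 of the 14 same pairs. Per exon union, Dusp1 and Dusp2 in NK cells moved to 212 and 357 CPM per kb, and Dusp6 in ILC1s to 29.8. Spry1 is not reached by the 5 CPM filter.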
